A study of Mus musculus with 2 samples.

Results

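Mir132, Mir212, Mir21a and Mir872 are 4 microRNA genes grouped here by a reported or assumed tie to the hormones that drive steroid output in the adrenal cortex. Mir132 and Mir212 are linked to corticotropin (ACTH) and its messenger cAMP, and Mir21a to angiotensin II. Mir872 was grouped with the first 2 as linked to cAMP, an assumed link. None of the links was checked against a source here. The 4 genes were chosen by these links, with earlier results of these data known and with no threshold on their counts. They were found by gene symbol among the 2202 microRNA genes of the count tables. The tables hold 2 libraries of adrenal gland tissue from male mice of strain B6CASTF1/J at 36 days of age, and whether a library holds 1 gland or more is not given. B6CASTF1/J is the F1 hybrid of C57BL/6J and CAST/EiJ, and the labels number the animals separately but give both the same donor record. The animals carry no named allele and received no named treatment, so the labels define 1 group of 2 biological replicates. No hormone was measured or given, and the comparisons below describe how far 2 libraries of the same tissue differed.

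In the adrenal cortex, ACTH binds a receptor that raises cAMP, and cAMP-dependent kinase then drives cholesterol use and glucocorticoid synthesis. Angiotensin II acts on the outer zone through a receptor that raises calcium, and it drives aldosterone synthesis. MicroRNAs are short RNAs cut from a hairpin precursor, and they lower the output of messenger RNAs that pair with their seed, the stretch near the 5′ end that leads target pairing. Mir132 and Mir212 are known as a neighbouring pair that the cAMP-responsive factor CREB induces in neurons, and ACTH has been reported to raise both in rodent adrenal glands. MiR-21 has been reported to rise with angiotensin II in human adrenocortical cells in culture, and it is also widely expressed in growing and injured tissue. Mir872 is the least studied of the 4.

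The hairpins of Mir212 and Mir132 are shown because the counts refer to whole hairpins and because the 2 genes lie side by side. Both lie on the plus strand of chromosome 11, and 203 bases separate them. RefSeq (GRCm38.p6) gives the following hairpins, 5′ to 3′, with both mature arms in capitals.
Mir212: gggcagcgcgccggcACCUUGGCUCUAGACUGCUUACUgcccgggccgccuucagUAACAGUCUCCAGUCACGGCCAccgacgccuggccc
Mir132: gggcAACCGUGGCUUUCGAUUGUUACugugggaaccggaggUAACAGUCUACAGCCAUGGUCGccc

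The mature arms below are those best known for each gene, with the seed (bases 2 to 8) in capitals. They are shown because they group the 4 genes by shared seed.
mmu-miR-132-3p: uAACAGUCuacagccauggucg
mmu-miR-212-3p: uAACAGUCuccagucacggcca
mmu-miR-21a-5p: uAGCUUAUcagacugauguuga
mmu-miR-872-5p: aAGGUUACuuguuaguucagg
The miR-132-3p and miR-212-3p arms share 1 seed and are identical at 17 of 22 bases. Counted from 1 at the 5′ end of miR-132-3p, they differ by A10C, C14U, U17C, U20C and G22A, so the first difference comes after the seed. Among 1738 mature entries in the RefSeq table, these 2 are the only ones with that seed. The seed of miR-21a-5p is shared with 1 other entry, miR-21c, whose gene Mir21c had 0 counts in both libraries. A count of 0 allows up to 3 counts, or 0.667 CPM (counts scaled to a library total of 1000000) in replicate 1 and 1.44 CPM in replicate 2. No other entry shares the seed of either arm of Mir872. The files do not separate the arms of a hairpin, so no level is given for a single mature sequence.

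The 4 genes lie in 3 different kinds of place in mm10. Mir132 (ENSMUSG00000065537.2) spans chr11:75173682-75173747 and Mir212 (ENSMUSG00000065590.1) spans chr11:75173388-75173478. Both sit in an intron of the noncoding transcript 1700016P03Rik on the same strand, with the protein-coding gene Hic1 3.87 kb from Mir212 and Ovca2 2.19 kb from Mir132. Mir21a (ENSMUSG00000065455.1) lies on the minus strand at chr11:86584067-86584158, where it overlaps an exon of 1 of the 8 annotated transcripts of Vmp1, in an untranslated part. Vmp1 encodes a membrane protein of autophagy. Mir872 (ENSMUSG00000077921.1) lies on the plus strand at chr4:94665157-94665237, in an intron of 1 of the 3 annotated transcripts of Ift74, which encodes a subunit of the transport machinery of cilia. No other annotated microRNA hairpin matches an arm of these genes with fewer than 4 mismatches, the closest case being the 5p arm of Mir21a. Multimapping reads, 29.8% of replicate 1 and 21.5% of replicate 2, enter no gene count. How many of them came from these 4 genes was not tested.

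Replicate 1 held 4494857 reads on the sense strand of microRNA genes and replicate 2 held 2078824, which were 36.6% and 20.1% of their reads. CPM values were not divided by hairpin length, since the labels restrict the sequenced RNA to small sizes, as mature microRNAs have. All 4 genes were detected in both libraries. The counting error of each level, given as an exact Clopper-Pearson 95% interval, was small beside the difference between libraries. Intervals cover counting error only and leave out differences between animals and library preparations. Copies of a molecule made by PCR cannot be recognised, so the intervals may be too narrow even for counting error.

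Mir21a was the highest of the 4 genes and Mir212 the lowest in both libraries, while Mir132 and Mir872 were in opposite order. Mir21a had 29610 counts in replicate 1 and 26663 in replicate 2, or 6588 CPM (6513 to 6663) and 12826 CPM (12673 to 12980). Its mean was 9707 ± 4411 CPM (SD, n = 2), rank 22 of the 749 genes with any count. Mir132 had 2826 and 5124 counts, or 629 CPM (606 to 652) and 2465 CPM (2398 to 2533), a mean of 1547 ± 1298 CPM and rank 66. Both genes were higher in replicate 2.

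Mir872 went the other way. It had 6026 and 1471 counts, or 1341 CPM (1307 to 1375) in replicate 1 and 708 CPM (672 to 745) in replicate 2, a mean of 1024 ± 448 CPM and rank 86. Mir212 had 190 and 455 counts, or 42.3 CPM (36.5 to 48.7) and 219 CPM (199 to 240), a mean of 131 ± 125 CPM and rank 188. The SDs do not separate Mir132 from Mir872, and they do separate Mir21a from the other 3 and Mir872 from Mir212. Mir132 and Mir212 overlap within their SDs, although Mir132 was the higher of the pair in each library. Within single libraries, Mir132 ranked 104 in replicate 1 and 52 in replicate 2, and Mir212 ranked 224 and 159. Mir21a ranked 33 and 19, and Mir872 ranked 70 and 102.

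**Figure D1:**
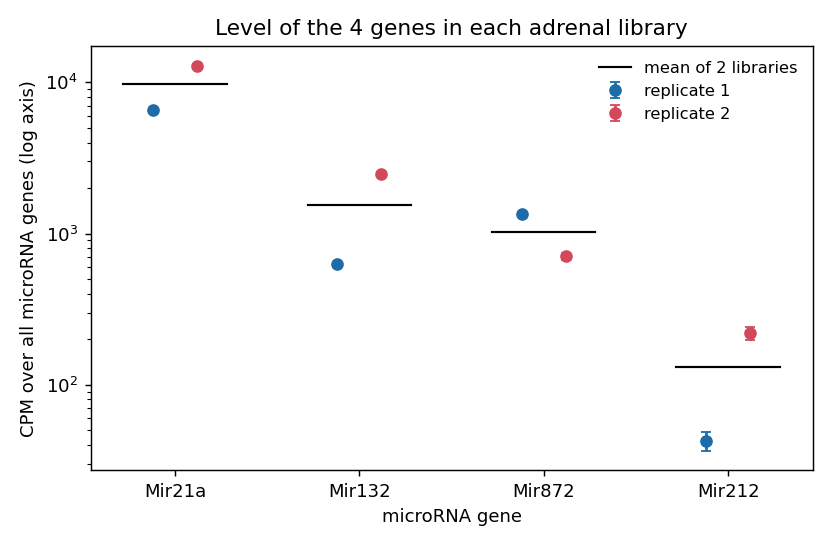
Level of Mir21a, Mir132, Mir872 and Mir212 in each adrenal library, in CPM on a log axis; points are libraries, bars are exact 95% counting intervals (mostly smaller than the points) and black lines are means of the 2 libraries. Mir21a, Mir132 and Mir212 are higher in replicate 2, and Mir872 is higher in replicate 1, at 1341 against 708 CPM.

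The 4 genes together took 0.86% of the gene counts in replicate 1 and 1.62% in replicate 2. Mir21a made up most of that sum in each library, at 76.6% and 79.1%. The remainder differed in make-up. Mir872 made up 15.6% of the 4-gene sum in replicate 1 and 4.36% in replicate 2, while Mir132 made up 7.31% and 15.2%. Mir212 made up 0.492% and 1.35%. Mir132 and Mir212 together reached 671 and 2684 CPM in replicates 1 and 2, a mean of 1677 ± 1423 CPM (SD, n = 2).

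Ratios of one gene to another within a library need no scaling between libraries, and they show which of the 4 genes kept a similar proportion. Mir132 exceeded Mir212 by 14.9-fold in replicate 1 (counting interval 12.8 to 17.3) and by 11.3-fold in replicate 2 (10.2 to 12.4). Mir132 thus held 93.7% of the counts of the pair in replicate 1 (92.8 to 94.5) and 91.8% in replicate 2 (91.1 to 92.5). The pair share differed beyond counting error (two-sided Fisher's exact test p = 0.00173, Benjamini-Hochberg adjusted p = 0.00173 over the 6 pairs of these genes), but by only -0.40 on the log2 scale. Every other pair differed more. The ratio of Mir132 to Mir21a was higher in replicate 2 by 1.01 on the log2 scale, and that of Mir212 to Mir21a by 1.41. Ratios that involve Mir872 differed the most, by 1.88 for Mir21a over Mir872, 2.89 for Mir132 over Mir872 and 3.29 for Mir212 over Mir872. Mir872 stood 2.13-fold above Mir132 in replicate 1, whereas Mir132 stood 3.48-fold above Mir872 in replicate 2. All 6 pairs passed Fisher's exact test, which compares the reads of these 2 libraries and not a condition.

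Set against the other microRNA genes, Mir132 and Mir212 were among those with the larger differences between the 2 libraries, and Mir21a was not. Ratios are replicate 2 over replicate 1 after TMM scaling, which sets the general shift between libraries near 0, for the 333 genes that reached a minimum of 10 counts in each library. All 4 genes passed that minimum. Mir212 had a log2 ratio of 2.19 (counting interval 1.94 to 2.44), or 4.55-fold, and 12 of the 333 genes had a higher one. Mir132 had a log2 ratio of 1.79 (1.72 to 1.85), or 3.45-fold, and 18 genes had a higher one. Mir872 stood at -1.11 (-1.19 to -1.02), or 2.15-fold higher in replicate 1, with 36 genes lower still. Mir21a stood at 0.78 (0.75 to 0.80), or 1.71-fold, near the median absolute log2 ratio of 0.62. Larger absolute ratios than those of Mir212, Mir132, Mir872 and Mir21a were held by 5.11%, 8.11%, 24.3% and 40.2% of the tested genes.

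**Figure D2:**
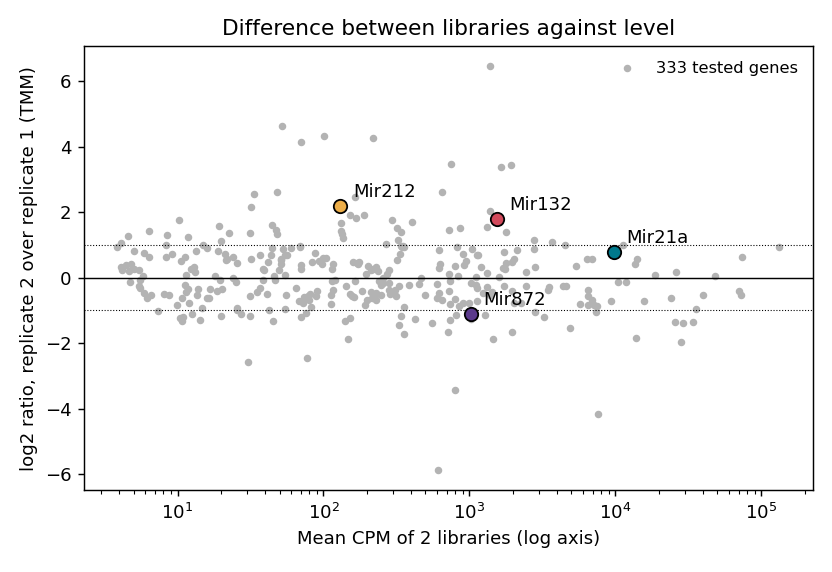
Log2 ratio between the libraries (replicate 2 over replicate 1, TMM scaling) against mean CPM on a log axis for the 333 tested genes (grey), with the 4 adrenal genes in colour and dotted lines at 2-fold. Mir212 (2.19) and Mir132 (1.79) lie above the upper line, Mir872 (-1.11) just below the lower line, and Mir21a (0.78) within both.

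All 4 genes passed a two-sided exact binomial test of their 2 counts, with Benjamini-Hochberg adjustment over the 333 genes. The adjusted p was 7.01e-77 for Mir212, 8.64e-176 for Mir872 and below 1e-300 for Mir132 and Mir21a. That test allows for no error beyond counting, and it called 78.1% of all tested genes. Replicate 2 was the higher one for 39.3% of tested genes and replicate 1 for 38.7%. Passing it is therefore no mark of these 4 genes. A difference of over 2-fold was seen in 3 of the 4 genes and in 27.3% of tested genes. It was toward replicate 2 for Mir132 and Mir212 (14.7% of tested genes) and toward replicate 1 for Mir872 (12.6%). Mir872 was under 2-fold with library size scaling (log2 ratio -0.92) and with the GC correction described below (-0.80), which leaves 2 of the 4 genes. Over 2-fold under those 2 choices were 30.6% and 27.9% of tested genes. An edgeR exact test, whose dispersion came from the same 2 libraries, called 0 of the 4 genes and 0.601% of tested genes. That test takes the difference between the 2 libraries as its noise, so only differences far above the typical one could pass. Its adjusted p was 0.988 for each of the 4, and its unadjusted p was 0.062 for Mir212, 0.119 for Mir132, 0.326 for Mir872 and 0.488 for Mir21a. None of the 4 was under an unadjusted 0.05, as 17 of the 333 genes were. The biological coefficient of variation behind that test was 52.7%.

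The libraries also differed in how many of their reads reached a microRNA gene, and this bears on Mir21a. Per 1000000 of all reads in the file, Mir21a stood at 2409 in replicate 1 and 2583 in replicate 2, a log2 ratio of 0.10 in place of 0.78. On that scale the median of the tested genes was itself -0.67. Mir132 stood at 230 and 496 per 1000000 of all reads (1.11), Mir212 at 15.5 and 44.1 (1.51), and Mir872 at 490 and 142 (-1.78). This scale lowers all ratios by the same amount, so the order of the 4 ratios is not affected.

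Hairpin base composition differed among the 4 genes and moved with the ratio between libraries. Over the 333 genes the log2 ratio rose by 0.27 for each 10 percentage points of hairpin GC content. Mir212 has a hairpin of 69.2% GC, and 12 of the tested genes have a higher value. Mir132 is at 57.6%, Mir21a at 45.7% and Mir872 at 39.5%, around a median of 50.5% for tested genes. With a linear correction for GC content the log2 ratio was 1.70 for Mir212, 1.61 for Mir132, 0.92 for Mir21a and -0.80 for Mir872. Corrected in this way, Mir132 and Mir212 lay closer to each other than before, and all 4 kept their direction. The correction used whole hairpins, whereas the small RNA sequenced has the size of mature arms. GC content was 54.5% in miR-212-3p, 50% in miR-132-3p, 36.4% in miR-21a-5p and 38.1% in miR-872-5p. A correction by the GC content of the arms was not made.

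Markers of other cell types moved between the same 2 libraries, and their part in the ratios of the 4 genes was not tested. In bulk tissue, a change in the number of cells of a type cannot be told apart from a change in RNA per cell. The 5 genes of the epithelial miR-200 family summed to 64.7 and 3576 CPM in replicates 1 and 2, and all 5 were called higher in replicate 2, led by Mir200c at 27.1 and 2734 CPM, then Mir200b and Mir429. Among all tested genes, 39.3% were called higher in replicate 2. In replicate 1 the pancreas acinar list (Mir217, Mir216a and Mir216b) was at 0 counts throughout, and in replicate 2 it summed to 677 counts. The 3 erythroid genes in the files went the other way, at 15841 and 1091 CPM, mostly Mir451a, with Mir144 next and Mir486 low in both. Any gene higher in replicate 2, as Mir132, Mir212 and Mir21a were, lies on the side of the epithelial and pancreatic lists. Any gene higher in replicate 1, as Mir872 was, lies on the side of the erythroid list, so these pairings carry no further information.

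Summed CPM of the neuroendocrine, endothelial, smooth muscle, leukocyte and fibroblast lists differed by less than 2-fold. Such a sum follows its highest genes, and single genes in these lists, such as Mir7b and Mir145a, differed by more. The 7 neuroendocrine genes, a guide to the chromaffin cells of the medulla, summed to 49653 and 54780 CPM, led by Mir375, Mir7b and Mir182. Of these 7, 2 were called higher in replicate 2 and the other 5 in replicate 1, at a median log2 ratio of -0.56. Over all tested genes, 39.3% and 38.7% were called toward replicates 2 and 1, at a median of 0.01. Mir375 made up most of the sum and was called toward replicate 2 at a log2 ratio of only 0.04, while Mir7b was at -1.21. The split toward replicates 2 and 1 was 1 and 6 with the GC correction, and 0 and 6 with scaling to all reads. The endothelial pair Mir126a and Mir126b summed to 74842 and 64797 CPM. Smooth muscle and pericyte genes Mir143, Mir145a and Mir145b summed to 46611 and 30221 CPM, with Mir145b at 1 and 0 counts. Mir143, most of that sum, was called toward replicate 1 (log2 ratio -0.97) and Mir145a toward replicate 2 (1.17). The 6 leukocyte genes summed to 3219 and 3903 CPM, led by Mir146, Mir150 and Mir142, with 2 of 5 tested called toward replicate 2 and 3 toward replicate 1. Fibroblast genes summed to 1215 and 1525 CPM, led by Mir214, Mir199b and Mir199a-2, with 2 of 3 tested called higher in replicate 2. The fibroblast calls depended on the processing, at 1 with the GC correction, 0 with no count minimum, and 2 toward replicate 1 with scaling to all reads. On that last scale 56 of the 333 tested genes were called toward replicate 2 and 213 toward replicate 1. Over all tested genes the GC correction gave 127 and 129 such calls, and no count minimum gave 132 and 167 of 749 genes. The liver and neuronal lists differed by more in summed CPM. The liver gene Mir122 stood at 1383 and 2842 CPM, and after TMM scaling its log2 ratio was 0.85, which is under 2-fold. The 8 neuronal genes summed to 903 and 366 CPM, nearly all of it Mir137 and Mir153, and 5 of them, including all 3 copies of Mir124a, were at 0 counts in both libraries. Reads that map to several copies enter no gene count, so these zeros do not show that the copies are silent. No list of microRNAs that mark adrenal cortex cells was used, so the share of cortex in each library is not known from these counts.

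Other microRNAs linked to the same hormones did not share 1 direction between the libraries. The lists do not record whether a hormone raises or lowers each gene, so no shared direction could be predicted from them. In the list for ACTH-responsive adrenal microRNAs, 9 of the 12 genes other than Mir132 and Mir212 were tested, with 4 called toward each replicate and a median log2 ratio of -0.02. Over all tested genes the median was 0.01, and 39.3% and 38.7% were called toward replicates 2 and 1. With the GC correction 2 of the 9 were called toward replicate 2 and 4 toward replicate 1, and with scaling to all reads 0 and 8, at a median of -0.70. All tested genes gave 127 and 129 calls with the GC correction. With scaling to all reads they gave 56 and 213, at a median of -0.67. Mir132 and Mir212 held the largest ratios in the list. Its highest members in level were Mir433, reported to lower the glucocorticoid receptor, at 2140 and 2740 CPM (log2 ratio 0.17), Mir27a at 1392 and 2170 CPM (0.46) and Mir132. Mir182, Mir183 and Mir96, which come from 1 genomic cluster, were at -0.68, -0.56 and 1.24, with Mir96 at only 29 and 36 counts. These 3 genes are also in the neuroendocrine list, Mir142 is also in the leukocyte list and Mir214 in the fibroblast list. The 3 listed copies of Mir466b had 0 counts in both libraries, and reads shared between copies are not counted.

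For cAMP-responsive microRNAs of steroid-producing cells, 7 of the 8 genes other than Mir132, Mir212 and Mir872 were tested, with 3 called toward each replicate and a median of -0.10. Over all tested genes, 39.3% and 38.7% were called toward replicates 2 and 1. With scaling to all reads the calls in the list were 0 toward replicate 2 and 6 toward replicate 1. Over all 333 tested genes that scale gave 56 and 213. Mir322 was the highest of the listed genes, at 20951 CPM in replicate 1 and 6610 CPM in replicate 2. Its log2 ratio of -1.85 was lower than that of Mir872. Mir27a and Mir132 followed Mir322 in level. Mir154 and Mir494, of the imprinted Dlk1-Dio3 region, were at 0.12 and -0.10, and only Mir154 passed the test. With the GC correction both passed, at 0.38 and 0.32, while Mir154 was at -0.05 with no count minimum and -0.56 with scaling to all reads. Mir24-1 and Mir24-2, which give the same miR-24-3p and lose reads that map to both, were at -0.48 and -0.67.

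For microRNAs linked to angiotensin II in any cell type, 6 of the 7 genes other than Mir21a, Mir132 and Mir212 were tested, with 3 called toward replicate 2, 1 toward replicate 1 and a median of 0.26. Over all tested genes, 39.3% and 38.7% were called toward replicates 2 and 1. The list median was -0.37 with strand-blind counts, where Mir129-2 was not tested, and -0.50 with no count minimum, where Mir483 entered. It was -0.42 with scaling to all reads. The median of 0.26 lies in a gap between Mir29b-1 at -0.34 and Mir34a at 0.85. None of the tested genes in the list changed direction under those alternatives. Those higher in replicate 2 were Mir34a, at 403 and 825 CPM (0.85), Mir129-1 at 8.68 and 58.2 CPM (2.56) and Mir129-2 at 65.9 and 268 CPM (1.84). Mir155, which targets the angiotensin II type 1 receptor in human cells and is also in the leukocyte list, was at -0.56. Mir29b-1 and Mir29b-2 did not pass the test, at 21.4 and 19.2 CPM and at 20 and 17.3 CPM. Of the 3 calls toward replicate 2, those of Mir129-1 and Mir129-2 are for copies of 1 microRNA. Mir29b-1 and Mir29b-2 are copies as well. Reads that map to both copies of such a pair enter no gene count, so these levels may be too low.

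For microRNAs studied in corticosteroid synthesis and sterol supply, which hold none of the 4 genes, 10 of 10 were tested, with 3 called toward replicate 2, 6 toward replicate 1 and a median of -0.30. Over all tested genes, 39.3% and 38.7% were called toward replicates 2 and 1. With scaling to library size the split of the list was 5 and 4, and with the GC correction it was 5 and 5. Over all 333 tested genes the same choices gave 149 and 112, and 127 and 129. The highest were Mir10b at 11612 and 12189 CPM (-0.12 with TMM, 0.07 with library size and 0.18 with the GC correction), Mir379 at 9137 and 5752 CPM (-0.85) and Mir125a, which targets the high-density lipoprotein receptor gene Scarb1, at 4733 and 8070 CPM (0.58). Over all 4 lists without the 4 genes, 12 of 29 tested genes were called toward each replicate. With scaling to library size those counts were 15 and 10, while over all tested genes they went from 131 and 129 to 149 and 112.

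**Figure D3:**
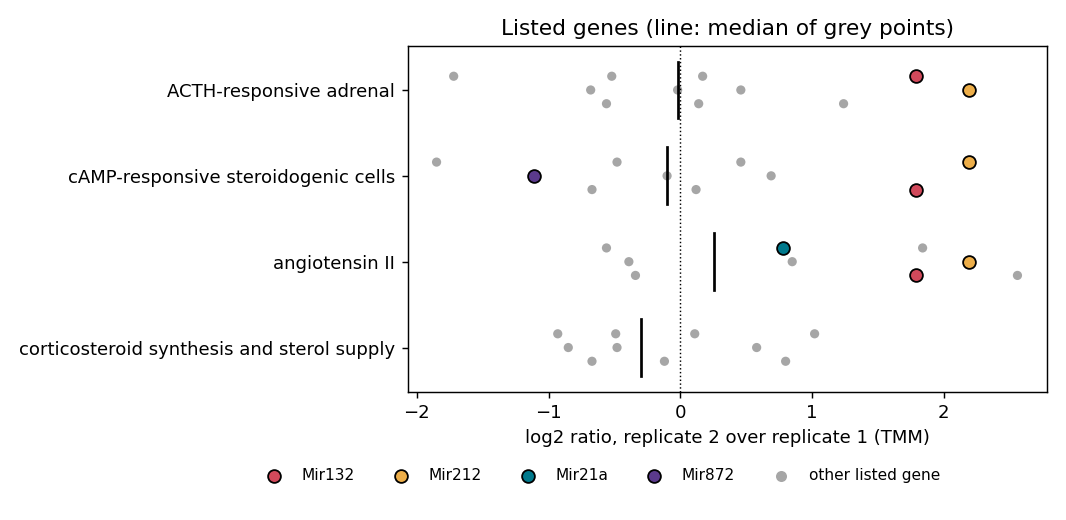
Log2 ratio between the libraries (replicate 2 over replicate 1, TMM scaling) of each tested gene in 4 lists of hormone-linked microRNAs; coloured points are the 4 adrenal genes, grey points are other listed genes and black lines are medians of the grey points. The medians lie between -0.30 (corticosteroid synthesis and sterol supply) and 0.26 (angiotensin II), with Mir132 and Mir212 to the right of all 4.

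Likeness to other genes was measured as the absolute difference of log2 ratios, over 2 libraries and among the 231 genes that reached 100 counts in each. With 2 libraries it says only that genes differed by the same factor. Nearest to Mir132 were Mir222 (log2 ratio 1.77) and Mir129-2 (1.84), and Mir212 itself was farther off. Nearest to Mir212 were Mir107 (2.05) and Mir326 (1.93). Mir21a was matched by Mir664 (0.76) and by Mir455 (0.80), a gene of the corticosteroid and sterol list that also targets Scarb1. Mir872 was matched by Mir708 and Mir20a, both at -1.14.

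In mean level, Mir21a stood between Mir652 at 10369 ± 278 CPM and Mir30a at 9283 ± 2297 CPM (SD, n = 2). Mir132 stood between Mirlet7c-2 at 1583 ± 157 CPM and Mir16-1 at 1446 ± 1071 CPM, and Mir872 between Mir337 at 1028 ± 519 CPM and Mir185 at 1019 ± 15.5 CPM. Mir212 stood between Mir495 at 131 ± 94.2 CPM and Mir217, whose 127 ± 180 CPM came from replicate 2 alone. None of these neighbours differed from its gene by more than the SD of that gene. They were picked as the closest in mean level, so that closeness carries no further information. Mir652 and Mir185 held nearly the same level in both libraries, while Mir21a and Mir872 beside them did not.

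The direction of all 4 genes was the same under every scaling, count minimum and count column tried. The log2 ratio of Mir132 ranged from 1.11 to 1.97, that of Mir212 from 1.51 to 2.37, that of Mir21a from 0.10 to 0.96 and that of Mir872 from -1.78 to -0.80. The lowest value of each of the first 3, and the most negative value of Mir872, came from scaling to all reads. Scaling to library size moved all ratios by 0.19 relative to TMM. The antisense column held 1 count of Mir21a in replicate 2 and 0 counts of the 4 genes otherwise.

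**Figure D4:**
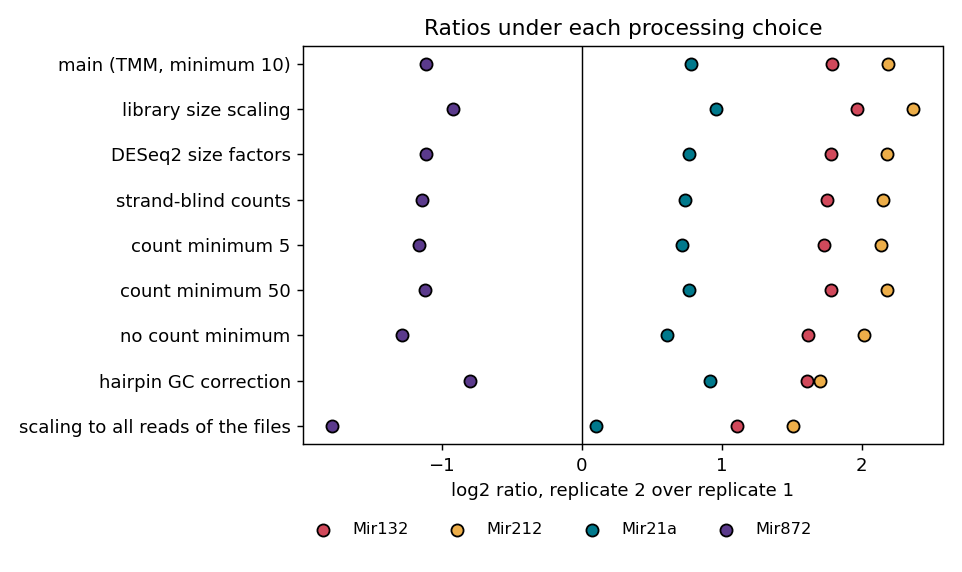
Log2 ratio of the 4 genes between the libraries (replicate 2 over replicate 1) under TMM scaling with a minimum of 10 counts and under 8 other choices, 1 row each. Mir132, Mir212 and Mir21a stay right of 0 and Mir872 stays left of 0 in each row; Mir21a comes nearest to 0, at 0.10 with scaling to all reads.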

How the data were processed

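The authors deposited raw read counts per microRNA gene, in a strand-blind column and in 1 column for each strand. Per the text files beside the tables, the build was mm10 with annotation M21. The aligner is not given in the sources used here. Each of the 2202 identifiers matched a GENCODE M21 gene. Sequences are from RefSeq (GRCm38.p6), in which all 4 genes have the same start and end. Column 3 (sense) was used. Reads that were unmapped, multimapping, outside microRNA genes or ambiguous (26.4%, 29.8%, 7.16% and 0% in replicate 1, and 51.9%, 21.5%, 6.46% and 0% in replicate 2) were left out of library sizes.

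Levels are CPM, with all gene counts of a library set to 1000000, and ratios between libraries used TMM factors. Counts of the 333 genes that reached 10 counts in each library were tested with an exact binomial test and Benjamini-Hochberg adjustment at 0.05 across all genes tested. The edgeR exact test was an alternative. The labels do not give more than 1 group, so these tests compare 2 libraries and not conditions. The binomial test allows for counting error only, and the edgeR test takes the difference between the 2 libraries as its noise. Neither p-value measures the spread between libraries. Scaling to all reads, and list values without the 4 genes, were chosen after seeing the data. Whether CAST/EiJ alleles changed mapping was not tested.

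The 4 genes and the lists were chosen with earlier results of these data known. The lists were written from general knowledge of the field and not checked against a source. Genes named are the 4 genes, the 3 highest tested genes of each list, the neighbours of the 4 genes in level and ratio, and genes that share a seed with them. Other listed genes were named after their values were seen. Software was R 4.3.3, edgeR 4.0.16, DESeq2 1.42.0, Python 3.11.15, SciPy 1.17.1, NumPy 2.4.6, pandas 2.3.3 and matplotlib 3.10.9.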

Additional observations from a re-analysis of the deposited data

How the results depend on the processing

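Ratios were recomputed with library size, DESeq2 size factors, strand-blind counts, count minimums of 5, 50 and none, a hairpin GC correction and scaling to all reads, and no direction of the 4 genes changed. With the edgeR exact test the log2 ratios of Mir132 (1.79), Mir212 (2.19), Mir21a (0.78) and Mir872 (-1.11) no longer passed, each at an adjusted p of 0.988. Its dispersion was taken from the same 2 libraries, so a gene with a typical difference could not pass it. That test called 1 gene in each direction in place of 131 and 129, and 0 and 0 listed genes in place of 12 and 12. With scaling to all reads, 56 genes were called toward replicate 2 and 213 toward replicate 1, and 5 and 22 listed genes. Per 1000000 of all reads, the mean level was 2496 for Mir21a and 316 for Mir872, and these follow from the larger total. With 1 library alone the levels ranged from 6588 to 12826 CPM for Mir21a, 629 to 2465 for Mir132, 708 to 1341 for Mir872 and 42.3 to 219 for Mir212, and the share of Mir132 in its pair from 91.8% to 93.7%. No ratio can be had from 1 library. No paired analysis was possible because the labels give 1 group.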
